A study of Mus musculus with 31 samples.

Results

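The comparison described here is how the ribosome footprint response of mouse squamous cell carcinoma (SCC) cells that can mount the integrated stress response (S51) differed from that of cells that cannot (S51A), on treatment with bortezomib, a drug that blocks the proteasome. For each gene, the log2 change of ribosome-protected fragments (RPFs) from vehicle to bortezomib in S51A cells was subtracted from the same change in S51 cells. A positive response difference therefore means that the change was more upward, or less downward, in S51 cells. The comparison took all 15 RPF libraries among the 31 libraries of the series, 3 of S51 vehicle and 4 each of S51 bortezomib, S51A vehicle and S51A bortezomib. The 16 total RNA libraries, 4 per group, served as the mRNA counterpart.

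All 4 groups are mouse skin SCC keratinocytes grown in Elow medium, of the genotype HRasG12V:TgfbrIIfl/fl by the sample labels and with TgfbrII deleted by the study's list of materials, from a line that carries an eGFP reporter. In both lines the endogenous Eif2s1 gene was cut by CRISPR, and a lentiviral, myc-tagged Eif2s1 cDNA behind the PGK promoter was left as the source of eIF2α. That cDNA is wild type in S51 cells and has alanine in place of the phosphorylated serine in S51A cells. Cells received DMSO as vehicle or 100 nM bortezomib, for 4.5 h according to the sample labels and for 4 h according to the methods. Each line was grown from single sorted cells, with 2 clones kept per genotype, and the clone behind each library is not named in the sources used here, so genotype and clone cannot be told apart. The replicates are called technical in one place and independent in another, and the p-values below measure only the spread between these libraries.

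The integrated stress response (ISR) begins with kinases that phosphorylate eIF2α, which slows the recycling of eIF2 by its exchange factor eIF2B and lowers the rate at which ribosomes start on most mRNAs. A few mRNAs with short upstream open reading frames (uORFs), among them those of the transcription factors ATF4, ATF5 and CHOP (Ddit3) and of the phosphatase subunit GADD34 (Ppp1r15a), are known for being translated better in that state. Messages that begin with a run of pyrimidines (5′ TOP mRNAs), which encode ribosomal proteins and translation factors, are known for being translated in step with mTOR activity. The names S51 and S51A refer to the serine of eIF2α that these kinases modify.

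Library totals on genes ran from 1038826 to 4902237 counts in RPF, with S51 bortezomib the shallowest group (1038826 to 2609137), and from 18758668 to 22994713 in total RNA. Replicate 2 of S51 vehicle stood apart from the other libraries. Its counts differed from those of replicates 1 and 3 with a chi-square per gene of 13.25 and 18.53, against 2.069 between these other replicates, and its log2 CPM (count scaled by the normalized library size) deviated from the mean over libraries by 0.514 for genes of 60.19% coding GC and by -0.741 for genes of 44.25% coding GC, whereas the other 14 libraries lay between -0.175 and 0.169 at both. Many of the counts of calls and values that turn on this library are given without it as well. The squamous keratinocyte markers were all tested (10 of 10), with summed RPF from 27500 to 41320 CPM per library, while the 8 fibroblast markers summed to at most 9.967 CPM with 6 of them at or under 3 counts in every library. Eif2s1, the replaced gene, had 161, 81.1 and 171 CPM in S51 vehicle, 163, 169.9, 195 and 148 in S51 bortezomib, 212, 236, 213 and 259 in S51A vehicle and 234, 214, 192 and 190.0 in S51A bortezomib. The lowest of these libraries was S51 vehicle replicate 2, the treated and untreated libraries overlapped in both lines, and the response difference of 0.43 ± 0.23 (log2 ± SE) was not called (0.364 as adjusted p in edgeR's quasi-likelihood test).

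The sequences that bear on these results are the start codons of the uORF-controlled mRNAs, the first bases of mRNAs whose response difference was lower, and the ATF4-type sites near genes whose difference was higher. They were read from the RefSeq transcripts and promoters of GRCm38.p6 (mm10). Each gene was represented by its transcript with the longest coding sequence, curated records first. In the mRNA of each of the 4 uORF-controlled genes that were called, upstream AUGs precede the main start, and positions are counted from the first base of the main start codon, with the start codon in capitals. All are shown for Atf4 and Ddit3. Not shown are those at -253, -189, -186 and -121 in Atf5, and at -249 in Ppp1r15a.
Atf4 upstream start at -475: ttttctctcATGgggcct
Atf4 upstream start at -196: gcggccaccATGgcgtat
Atf4 upstream start at -97: gcctaagccATGgcgctc
Atf4 main start: ccccacaacATGaccgag
Atf5 upstream start at -238: ggcccaggcATGcagaat
Atf5 upstream start at -136: gaaatttttATGaagagg
Atf5 main start: gtcacagccATGtcactc
Ddit3 upstream start at -131: gattatatcATGttgaag
Ddit3 upstream start at -122: atgttgaagATGagcggg
Ddit3 main start: cgtgcagtcATGgcagct
Ppp1r15a upstream start at -205: gaagattacATGcgatat
Ppp1r15a upstream start at -104: gagggcgacATGaacccg
Ppp1r15a main start: cccagacacATGgccccg
The reading frame from -97 in Atf4 holds 59 codons and runs past the main start in another frame, as does that from -136 in Atf5 with 63 codons. Both Ddit3 frames lie in 1 frame and share their stop, with 34 and 31 codons, and end before the main start, as do both Ppp1r15a frames shown, with 34 and 26 codons.

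Among genes whose response difference was lower, 10 of 93 had a chosen transcript (longest coding sequence) that opens with C followed by at least 4 pyrimidines. The run is given in capitals for 8 of them. Hdac7, a histone deacetylase, and Atp5g2, a subunit of ATP synthase, are shown with 6 that encode parts of the ribosome or translation factors, and the remaining genes were Fau and Rplp2.
Atp5g2 5′ end: CCCTCTCTgtcttct
Hdac7 5′ end: CCTTCCTCTCgccgt
Eif3f 5′ end: CTCTCTTTCTCggca
Pabpc1 5′ end: CCCCTTCTCCCCggc
Rpl28 5′ end: CTCTTTCCgtctccg
Rpl35 5′ end: CTCTTTCTCTCgaac
Rps10 5′ end: CTTCCTTTCCagcct
Rps18 5′ end: CTCTCTTCCacagga
The share of such starts was 10.8% in these genes (exact 95% binomial interval 5.28 to 18.89), 1.22% among genes called higher (1 of 82) and 2.33% among all 9442 genes tested with a coding transcript. With any annotated transcript allowed, the shares were 18.3%, 3.66% and 7.28%. Annotated ends need not be the ends used in these cells, and the intervals cover counting error only.

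In promoters (250 bases before to 50 after the annotated start), the letters TGATGNAA on either strand, the core of the composite site that ATF4 binds with C/EBP proteins, were found in 3 of 67 genes called higher with a promoter in the table, and the match is in capitals.
Arid5a, chr1:36307561-36307584: ctaggggcTGATGTAAgaaactca
Chac1, chr2:119351041-119351064: ggcaggagTGATGCAAcggcaggg
Tnfaip3, chr10:19011970-19011993: tttaaaagTGATGTAActtagaac
The first 2 lie on the strand opposite to their gene, the last on the same strand as its gene. The share was 4.48% (exact 95% binomial interval 0.93 to 12.53), against 2.5% of genes called lower (2 of 80) and 1.94% of all 7515 genes tested with a promoter, so that the interval held the share of all genes. The letters TGACGTCA of a cAMP response element were found in 7.46% of genes called higher, 6.25% of genes called lower and 3.57% of all, and both of the first intervals (2.47 to 16.56 and 2.06 to 13.99) held the last share. A match is a description of letters and not a site shown to be bound.

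Of 9457 genes tested, 176 (1.86%) had a called response difference, 83 higher (0.878%) and 93 lower (0.983%), where a call required a Benjamini-Hochberg adjusted p under 0.05 together with a fold difference over 1.5. Most of the higher genes rose in S51 cells and most of the lower ones fell there. Of the 83 higher genes, 39 rose in S51 with no call in S51A, 6 rose in both lines, 3 rose in S51 and fell in S51A, 13 fell in S51A with no call in S51, 1 fell in both, and 21 had a call in neither line alone. Of the 93 lower genes, 67 fell in S51 with no call in S51A, 19 fell in both, 1 rose in S51A with no call in S51, and 6 had a call in neither. For comparison, 18.6% of all genes tested were called in the S51 response (7.38% higher and 11.2% lower) and 10.9% in the S51A response (4.19% higher and 6.67% lower), which share their libraries with the difference. The untreated lines differed as well, in 15.8% of genes (6.62% higher in S51 and 9.19% lower), and 22 of the 83 higher genes started from a lower level in S51 than in S51A, while 4 started from a higher one. Of the 93 lower genes, 5 started higher in S51 and 1 lower. Between the treated lines, where 17.7% of all genes differed (7.66% higher in S51), 48 of the 83 were higher in S51 and 62 of the 93 were lower.

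The median of the higher genes was 0.64 in S51 and -0.19 in S51A, and that of the lower genes was -1.11 in S51 and -0.25 in S51A (RPF log2 changes). Without S51 vehicle replicate 2, 152 genes were called higher and 136 lower. All 83 and all 93 genes kept their sign without it, and 70 of the 83 and 81 of the 93 kept their call. The count of calls also moved by more than 1.5 times with other libraries left out, to 379 without S51 vehicle replicate 3, 100 without S51 bortezomib replicate 3, 110 without S51A vehicle replicate 2, 109 without S51A vehicle replicate 4 and 117 without S51A bortezomib replicate 2. Values are scaled within each library, and a change that affected every mRNA alike was not measured.

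**Figure D1:**
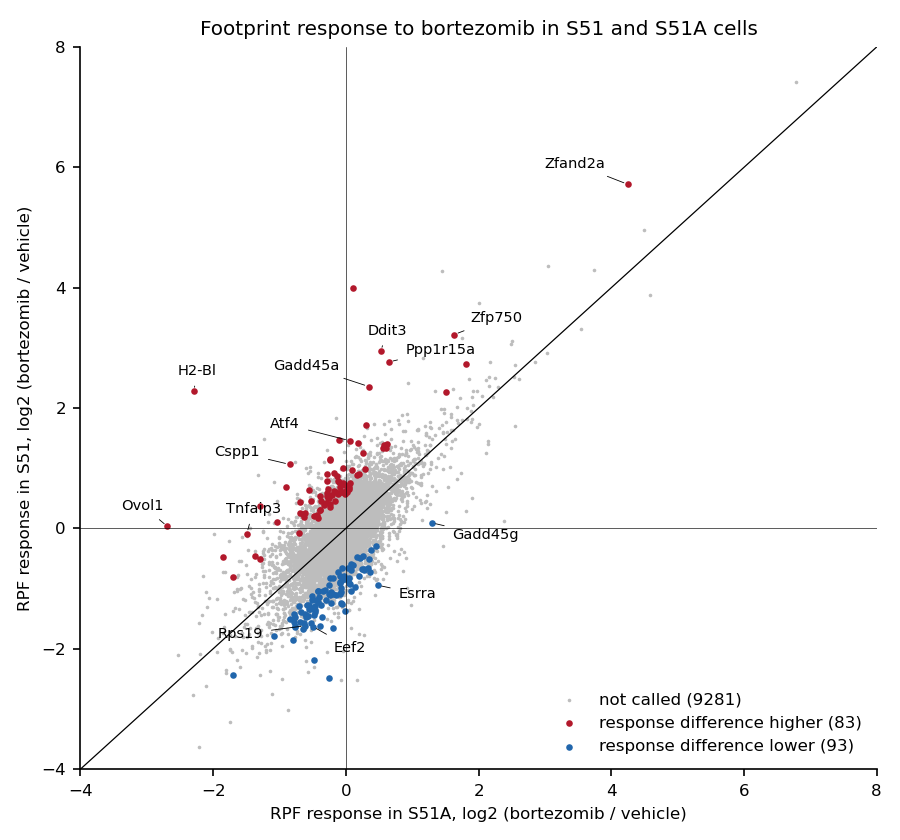
RPF log2 change from vehicle to bortezomib of the 9457 genes tested, in S51A cells (x axis) and in S51 cells (y axis), with the line of equal change. The 83 genes called higher in S51 than in S51A (red) lie above the line and the 93 called lower (blue) below it, with the other 9281 in grey.

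The mRNAs with uORFs included the genes with the largest differences of any list described here. In a list of 14 such mRNAs (13 tested) 4 were called higher and none lower, beside 0.878% and 0.983% of all genes. The median difference was 0.52 against 0.01 over all genes tested. Atf4 (at chr15:80255184-80257545) encodes the main transcription factor of the ISR and had 212, 181 and 174 CPM in S51 vehicle, 505, 505, 537 and 528 in S51 bortezomib, 107, 116, 129 and 151 in S51A vehicle and 108, 141, 137 and 141 in S51A bortezomib. All 4 treated S51 libraries lay above every other library, while the treated and untreated S51A libraries overlapped. The difference was 1.40 ± 0.16 (adjusted p = 4.15e-05, edgeR's quasi-likelihood test), 2.75-fold in S51 and 1.04-fold in S51A, and it was 1.39 without S51 vehicle replicate 2.

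Atf5 (at chr7:44812256-44816658) encodes a related factor that also resides at centrosomes. Its RPF was 48.4, 68.0 and 37.0 CPM in S51 vehicle, 121, 184, 148 and 205 in S51 bortezomib, 13.1, 12.4, 15.7 and 17.2 in S51A vehicle and 14.1, 17.0, 19.7 and 22.0 in S51A bortezomib. The S51A libraries of both treatments lay below all S51 libraries, and the difference was 1.42 ± 0.30 (adjusted p = 0.0124), with a log2 change of 1.72 in S51 and 0.30 in S51A. The call was lost without S51A vehicle replicate 4 (1.30, adjusted p = 0.052). Without S51 vehicle replicate 2, the highest of the untreated S51 libraries, the difference was 1.67.

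Ddit3 (at chr10:127290793-127296291) encodes CHOP, a transcription factor tied to cell death under stress. It had 5.30, 7.72 and 5.22 CPM in S51 vehicle, 31.96, 46.8, 41.9 and 60.9 in S51 bortezomib, 6.06, 5.06, 5.798 and 6.28 in S51A vehicle and 2.25, 11.2, 8.82 and 12.4 in S51A bortezomib. Treated S51 libraries lay above every other library, and in S51A the treated libraries spread on both sides of the untreated ones. The difference of 2.42 ± 0.49 (adjusted p = 0.00735) was a 7.69-fold rise in S51 beside 1.44-fold in S51A, which was not called, and the call held with each library left out in turn. It was 2.59 without S51 vehicle replicate 2.

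Ppp1r15a (at chr7:45522917-45526268) encodes the stress-induced subunit that directs a phosphatase to eIF2α. Counts were low, with 2.48, 1.93 and 1.99 CPM in S51 vehicle, 8.72, 15.3, 17.0 and 16.8 in S51 bortezomib, 1.86, 2.11, 1.24 and 2.83 in S51A vehicle and 3.54, 2.92, 3.63 and 3.48 in S51A bortezomib. Treated libraries lay above untreated ones in both lines, with the change called in S51 and not in S51A, and the difference was 2.12 ± 0.48 (adjusted p = 0.0195). The call was lost without S51 bortezomib replicate 3 (2.01, adjusted p = 0.0508) and without S51A vehicle replicate 4 (1.87, adjusted p = 0.0851). The other 9 tested members of the list were not called and ran from -0.06 in Mtg2 to 0.88 in Azin1, with the phosphatase subunit Ppp1r15b at 0.22 and Cdkn1a, a cell cycle inhibitor, at 0.18. The count of called members was 5 without S51 vehicle replicate 2, 2 without S51A vehicle replicate 4, and 3 with DESeq2, which gave Ppp1r15a no adjusted p. The difference of Ppp1r15a was 2.08 without S51 vehicle replicate 2.

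**Figure D2:**
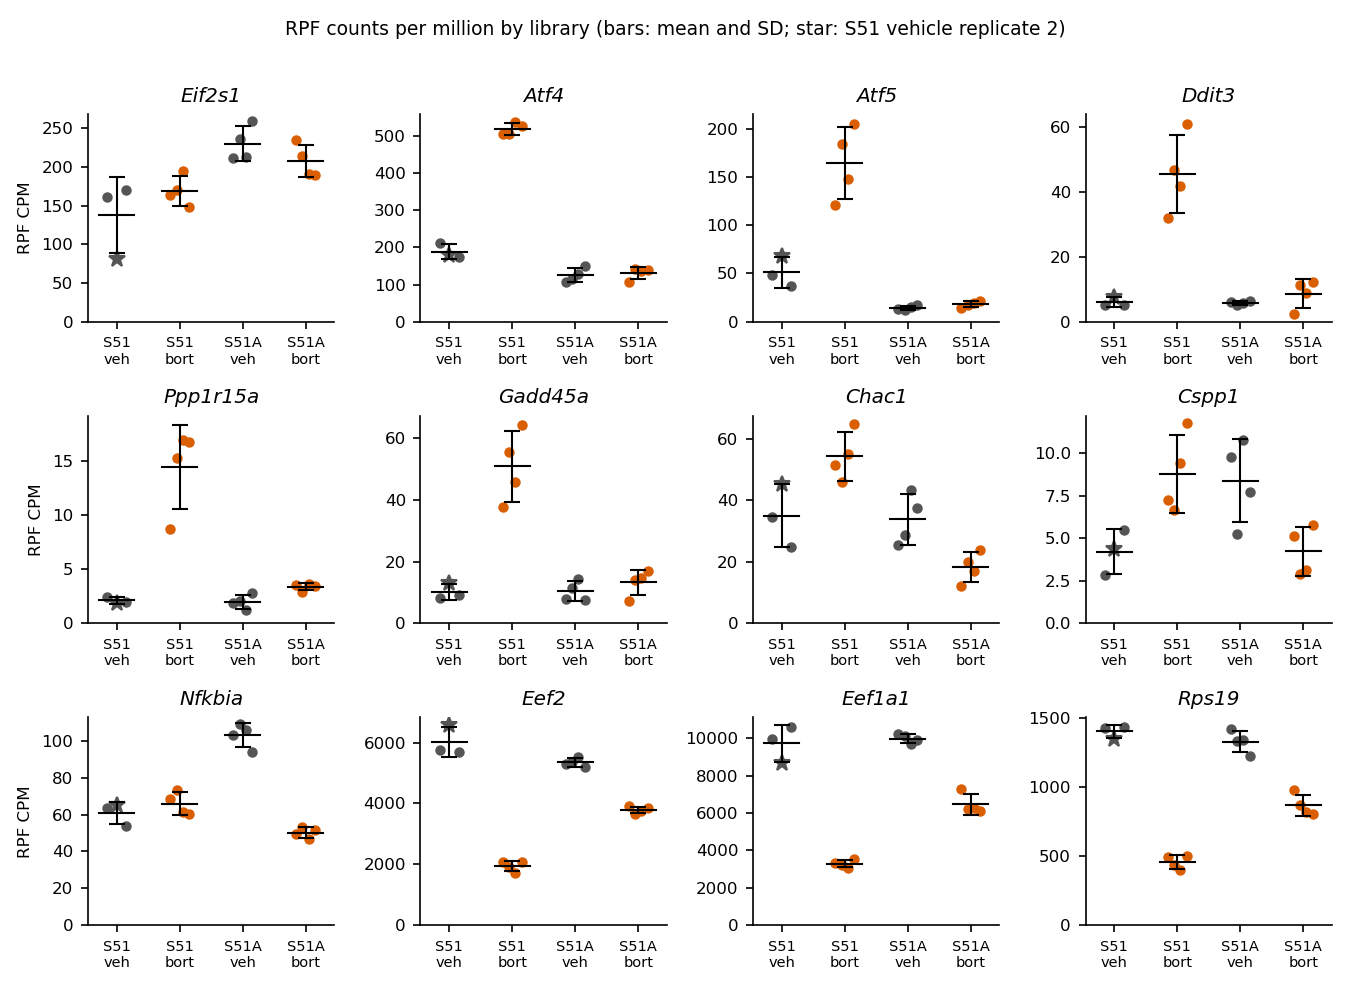
RPF CPM in each of the 15 libraries for 12 genes, by line and treatment (veh, vehicle; bort, bortezomib), with the mean and SD of each group as bars and S51 vehicle replicate 2 as a star. Atf4, Atf5, Ddit3, Ppp1r15a and Gadd45a are high in treated S51 libraries and lie near the untreated level in treated S51A libraries, while Eef2, Eef1a1 and Rps19 are lower in the treated libraries of both lines and lowest in those of S51.

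Of the genes of the eIF2 machinery, 1 of 14 was called, and it was Ppp1r15a again. The other 13, which encode eIF2 and eIF2B subunits, the 4 eIF2α kinases and Ppp1r15b, ran from -0.09 in the kinase gene Eif2ak3 to 0.44 in Eif2b3, with a list median of 0.16, which was 0.08 without S51 vehicle replicate 2.

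The genes that ATF4 is known to switch on had a smaller response difference than the uORF mRNAs. In the list of 28 ATF4 targets (24 tested), only Chac1 was called, and the median was 0.17 in RPF and 0.30 in total RNA. The RPF median was 0.20 without S51 vehicle replicate 2 and 0.07 without replicate 3. The median RPF change was 0.18 in S51 and close to 0 in S51A. The lines already differed without drug, where 18 of the 24 were called higher in S51 and none lower. Of all genes tested, 6.62% were higher there and 9.19% lower. The median RPF log2 difference of S51 from S51A was 0.88 in vehicle and 1.05 in bortezomib. Asparagine synthetase (Asns) was at 0.17 and the serine pathway enzymes Psat1 and Phgdh at 0.21 and -0.32, none of them called. In total RNA, 4 of the list were called higher and none lower, beside 1.34% and 0.752% of all genes tested there.

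Chac1 encodes an enzyme that degrades glutathione. It had 34.6, 45.4 and 24.8 CPM in S51 vehicle, 51.6, 45.8, 55.1 and 64.8 in S51 bortezomib, 25.6, 28.7, 43.5 and 37.4 in S51A vehicle and 12.2, 19.9, 17.1 and 23.9 in S51A bortezomib. All treated S51 libraries lay above the untreated ones and all treated S51A libraries below them. The difference was 1.59 ± 0.30 (adjusted p = 0.00465), made of a log2 change of 0.69 in S51 and -0.90 in S51A, both called. The call held in all 15 fits that left out 1 library, at 1.82 without S51 vehicle replicate 2. The total RNA difference of 1.77 was of like size, and the TE difference (RPF minus total RNA) was -0.13 and not called.

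Amino acid supply showed single calls. Slc38a2, a transporter of neutral amino acids, was called at 0.59 ± 0.11 (adjusted p = 0.00351) among 8 transporters tested, with 959, 799 and 893 CPM in S51 vehicle, 1386, 1223, 1389 and 1361 in S51 bortezomib, 1028, 1004, 1049 and 983 in S51A vehicle and 1107, 996, 1051 and 941 in S51A bortezomib. It rose in S51 without overlap. Lars, the leucyl-tRNA synthetase, was called at 0.68 ± 0.15 (adjusted p = 0.0173) among 20 cytosolic synthetases. Both sat close to the fold limit, and without S51 vehicle replicate 2 their differences were 0.52 and 0.53, under it. The call of Slc38a2 held in 6 of the 15 fits that left out 1 library. The list medians were 0.29 for the transporters and 0.22 for the synthetases in RPF, and 0.28 and 0.17 in total RNA. The transporter median was 0.18 without S51 vehicle replicate 3, and the synthetase median 0.14 without replicate 2. Between the untreated lines, 5 of the 8 transporters and 6 of the 20 synthetases were called higher in S51 and none lower, beside 6.62% and 9.19% of all genes.

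Ribosomal protein mRNAs formed the largest listed group among the genes with a lower difference. All 77 tested members had a negative difference, from -1.02 in Rps26 to -0.09 in Rpl5, with a median of -0.56. Of these, 28 were called lower and none higher, beside 0.983% and 0.878% of all genes tested. In S51 cells 70 of the 77 fell with bortezomib, beside 11.2% of all genes tested, and in S51A cells 17 fell, beside 6.67% of all genes. The median RPF change was -1.03 in S51 and -0.47 in S51A. Without S51 vehicle replicate 2 the count of lower members was 42 and the median -0.62, and over all fits that left out 1 library the count was 26 or more.

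Rps19, a component of the small subunit, may serve as an example, with 1432, 1349.5 and 1436 CPM in S51 vehicle, 496, 435, 401 and 501 in S51 bortezomib, 1419.9, 1334, 1344 and 1229 in S51A vehicle and 978, 871, 822 and 808 in S51A bortezomib. The libraries of treated S51 cells held the lowest 4 values, those of treated S51A cells the next, and no treated library overlapped an untreated one. The difference was -1.0 ± 0.12 (adjusted p = 4.9e-05), from 0.326 times the vehicle level in S51 to 0.654 times in S51A. Rpsa, another small subunit protein, changed by -1.24 in S51 and by -0.23 in S51A, the latter not called, with a difference of -1.01 ± 0.12 (adjusted p = 4.45e-05). Ribosomal protein genes have many near-identical pseudogene copies, and reads that match several copies can be lost or shared by the counting.

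The elongation and initiation factors encoded by TOP mRNAs followed with 6 of 21 called lower and none higher, beside 0.983% and 0.878% of all genes. The list median was -0.26. The median was -0.46 without S51 vehicle replicate 2 and -0.48 with the GC trend of each library removed. Eef2, which moves the ribosome along the mRNA, had 5767, 6587 and 5688 CPM in S51 vehicle, 2068, 1919.6, 1721 and 2063 in S51 bortezomib, 5289, 5378, 5542 and 5213 in S51A vehicle and 3917, 3665, 3741 and 3835 in S51A bortezomib. Treated S51 libraries lay lowest and treated S51A libraries between them and the untreated ones, with no overlap, and the change was called in S51 (-1.63) and not in S51A (-0.50). Its difference of -1.13 ± 0.10 (adjusted p = 1.27e-06) had the smallest adjusted p among the named genes, and it was -1.06 without S51 vehicle replicate 2.

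Eef1a1, which brings aminoacyl-tRNA to the ribosome, had 9973, 8650.0 and 10598 CPM in S51 vehicle, 3339, 3205, 3071 and 3509 in S51 bortezomib, 10206, 10134, 9671 and 9910.3 in S51A vehicle and 7305, 6216, 6245 and 6109 in S51A bortezomib. Treated libraries of both lines lay below all untreated ones, with the change called in both lines, -1.57 in S51 and -0.63 in S51A, and a difference of -0.94 ± 0.10 (adjusted p = 4.05e-05). Also called lower were Eif3f (-0.89) and Eif3k (-0.61), subunits of eIF3, the elongation factor subunit Eef1b2 (-0.76), and the poly(A)-binding protein Pabpc1 (-0.72), which fell in S51A as well (-1.71). The call of Eif3k was lost without S51 vehicle replicate 2 (-0.53), S51 bortezomib replicate 3 (-0.57) or S51A vehicle replicate 4 (-0.58), each short of the fold limit alone, and that of Pabpc1 without S51 bortezomib replicate 3 (-0.67, adjusted p = 0.0603). The count of called members was 4 without S51 bortezomib replicate 3 and 9 without S51 vehicle replicate 3.

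**Figure D3:**
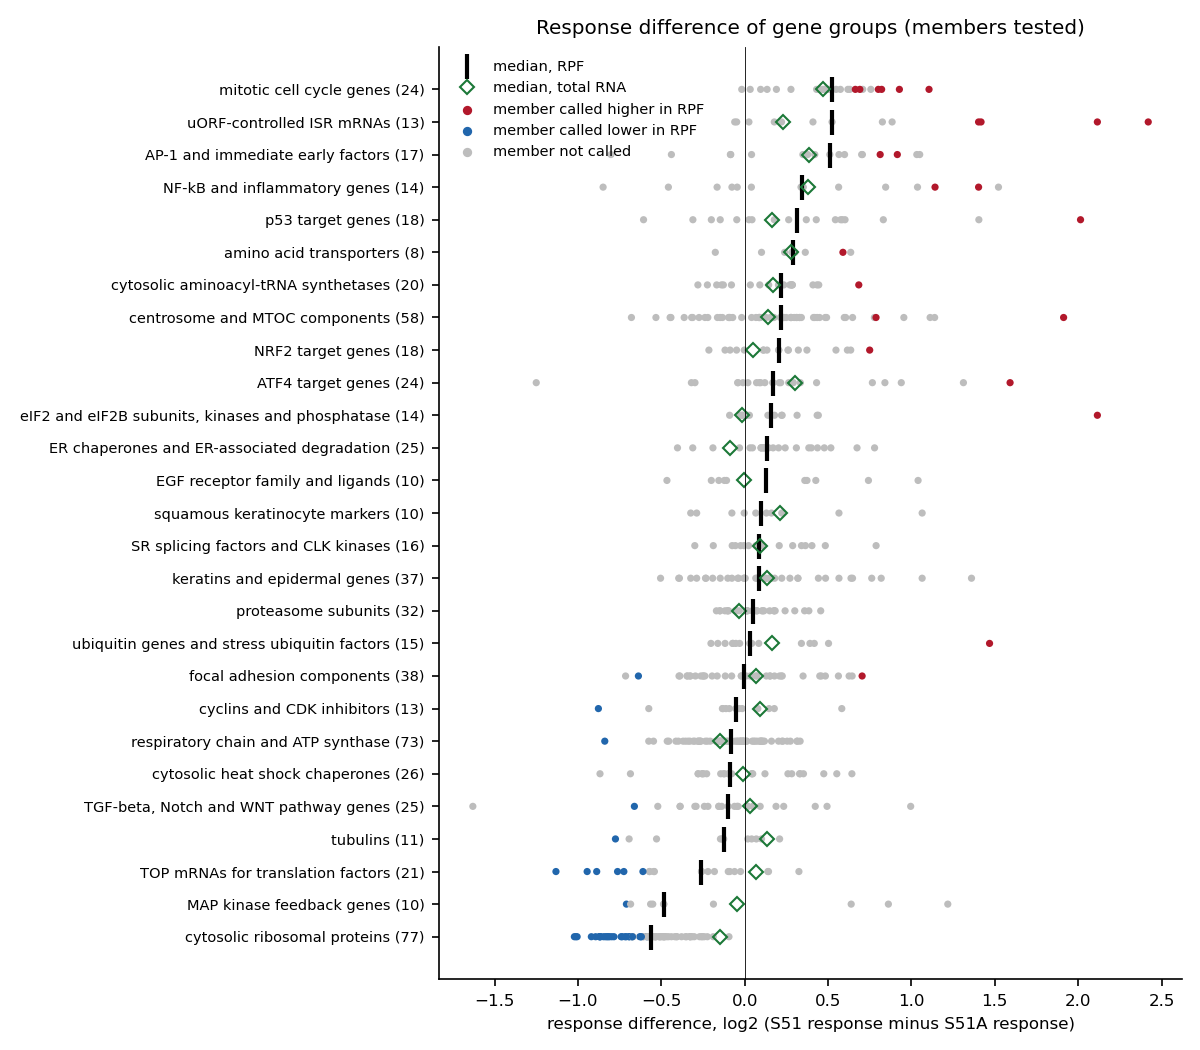
RPF response difference (log2) of the tested members of 27 gene lists with at least 8 members tested, with called members in red (higher) or blue (lower), the RPF median as a bar and the total RNA median as a diamond. Ribosomal proteins lie wholly below 0 with a total RNA median nearer to 0, and in mitotic genes both medians lie well above 0.

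Other lower genes included regulators of translation and growth. Eif4ebp2, an inhibitor of cap-dependent initiation, had 26.9, 35.7 and 29.6 CPM in S51 vehicle, 7.99, 14.3, 9.44 and 8.38 in S51 bortezomib, 23.3, 21.7, 26.9 and 18.8 in S51A vehicle and 19.6, 19.5, 16.1 and 22.0 in S51A bortezomib. It fell in S51 with no overlap between treated and untreated libraries, while the S51A libraries overlapped, and its difference was -1.45 ± 0.27 (adjusted p = 0.00344). Mknk2, a kinase that phosphorylates the cap-binding protein eIF4E, had 90.9, 143 and 98.1 CPM in S51 vehicle, 42.1, 47.7, 38.5 and 57.0 in S51 bortezomib, 73.7, 70.2, 71.2 and 65.6 in S51A vehicle and 59.5, 78.8, 63.3 and 69.1 in S51A bortezomib. It too fell in S51 with S51A libraries overlapping, with a difference of -1.20 ± 0.21 (adjusted p = 0.0023). Without S51 vehicle replicate 2, the highest library for Mknk2, the difference was -0.996.

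Nadk, which makes NADP, had 72.1, 71.4 and 60.4 CPM in S51 vehicle, 29.1, 25.8, 26.05 and 33.0 in S51 bortezomib, 59.2, 45.7, 50.5 and 49.8 in S51A vehicle and 49.2, 47.7, 48.3 and 47.9 in S51A bortezomib. Treated S51 libraries lay below all others, the S51A libraries overlapped, and the difference was -1.17 ± 0.17 (adjusted p = 0.000527). The kinase gene Mast2 was at -1.37 ± 0.26 (adjusted p = 0.00541), with 25.1, 30.9 and 23.6 CPM in S51 vehicle and 7.99, 13.4, 10.9 and 8.38 in S51 bortezomib. The nuclear receptor gene Esrra, a regulator of mitochondrial genes, was at -1.42 ± 0.32 (adjusted p = 0.0173). For Esrra the S51 libraries of both treatments overlapped, and S51 vehicle replicate 2 was the highest of all 15 at 56.9 CPM, and the difference without it was -1.05. Esrra missed the threshold without S51 bortezomib replicate 3 (-1.41, adjusted p = 0.0507).

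Eid2 (-1.70 ± 0.43), Flt3l (-1.23 ± 0.29), Tcf3 (-1.13 ± 0.28) and Nudt4 (-1.12 ± 0.30) completed the lower genes of greatest size, with adjusted p from 0.0245 to 0.0471. Each fell in S51 and was not called in S51A. The call of Eid2 held in 5, that of Flt3l in 10, and those of Tcf3 and Nudt4 in 3 of the 15 fits that left out 1 library. Signs were unchanged and adjusted p was at most 0.116. DESeq2 gave Eid2 no adjusted p. S51 vehicle replicate 2 was the highest library for Eid2, Flt3l and Tcf3, and without it their differences were -1.30, -0.81 and -0.74.

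Gadd45g, a stress-induced gene of the GADD45 family, was the one lower gene that rose in S51A with no call in S51. It had 17.0, 20.7 and 16.9 CPM in S51 vehicle, 18.9, 22.0, 16.2 and 21.2 in S51 bortezomib, 11.2, 7.80, 9.53 and 8.10 in S51A vehicle and 16.1, 21.4, 21.3 and 28.6 in S51A bortezomib. S51 libraries of both treatments overlapped, and treated S51A libraries lay above untreated ones. The difference was -1.20 ± 0.28 (adjusted p = 0.0245), and it was -1.17 in total RNA, also called. The call in RPF was lost without S51 bortezomib replicate 3, S51A vehicle replicate 2 or 4, or S51A bortezomib replicate 4, with adjusted p of at most 0.0749.

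Nrarp, a feedback inhibitor of Notch signalling, was counted 25, 8 and 20 times in S51 vehicle and 1, 1, 2 and 3 times in S51 bortezomib, and 13, 24, 10 and 35 times in S51A vehicle and 14, 12, 7 and 13 times in S51A bortezomib. It was called lower, but its treated S51 libraries were all at or under 3 counts, and no fold is given. The call held in 4 of the 15 fits that left out 1 library, with adjusted p of at most 0.136, and DESeq2 gave no adjusted p. Among other signalling genes, Ccnd3, a cyclin that drives entry into S phase, was called lower at -0.88 ± 0.21 (adjusted p = 0.0293), and its call held in 10 of 15 such fits. Tubb5, a β-tubulin, was called at -0.77 ± 0.12 (adjusted p = 0.00058), with 2782, 3385 and 2566 CPM in S51 vehicle, 2056, 1747, 1679.9 and 1728 in S51 bortezomib, 2728, 2730.5, 2755 and 2644 in S51A vehicle and 2755, 2791, 2928 and 3030.1 in S51A bortezomib. It fell in S51 with no overlap and overlapped in S51A, and the other 10 tubulins tested were not called. The difference of Tubb5 was -0.65 without S51 vehicle replicate 2. The list median of -0.13 was 0.04 without S51 vehicle replicate 2.

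Genes of stress and inflammatory signalling held higher differences, several of which came from a fall in S51A cells. Gadd45a, a stress gene under p53 and ATF4, had 8.13, 13.03 and 9.19 CPM in S51 vehicle, 37.8, 55.4, 45.7 and 64.3 in S51 bortezomib, 7.93, 11.4, 14.5 and 7.69 in S51A vehicle and 7.39, 14.1, 14.5 and 17.0 in S51A bortezomib. It rose 5.13-fold in S51 and was not called in S51A (1.27-fold), and the difference was 2.01 ± 0.37 (adjusted p = 0.00365), or 2.19 without S51 vehicle replicate 2. It was the one called member of 18 tested p53 targets, of which 12 rose in S51 and 10 in S51A (7.38% and 4.19% of all genes), with a median difference of 0.32. The next in size, the receptor Fas at 1.40, was not called.

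Nfkbia and Tnfaip3 encode the inhibitor IκBα and the enzyme A20, feedback brakes on NF-κB. Nfkbia had 63.3, 65.1 and 53.9 CPM in S51 vehicle, 68.3, 73.5, 61.2 and 60.4 in S51 bortezomib, 103, 109, 106 and 93.9 in S51A vehicle and 49.5, 53.01, 46.7 and 51.7 in S51A bortezomib. In S51 the treated and untreated libraries overlapped, and in S51A every treated library lay below every untreated one. The difference was 1.14 ± 0.15 (adjusted p = 0.000204) in RPF, 1.19 there without S51 vehicle replicate 2, and 1.07 in total RNA.

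Tnfaip3 had 37.1, 40.5 and 37.0 CPM in S51 vehicle, 30.5, 42.0, 34.4 and 37.5 in S51 bortezomib, 102, 111, 106 and 94.1 in S51A vehicle and 41.8, 24.8, 37.9 and 40.5 in S51A bortezomib, and a difference of 1.40 ± 0.20 (adjusted p = 0.000448). The difference of Tnfaip3 was 1.43 without S51 vehicle replicate 2. For both genes the untreated S51A libraries lay above all others, and the difference contains that gap between the untreated lines. Of the 14 tested genes of the NF-κB list 7 fell in S51A and 4 in S51 (6.67% and 11.2% of all genes), and no other member was called in the difference. In total RNA 4 were called higher and 1 lower (1.34% and 0.752% of all genes).

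The immediate early factors had a median difference of 0.51 in RPF (0.34 without S51 vehicle replicate 3) and 0.39 in total RNA, with Junb (0.92 ± 0.19) and Klf6 (0.81 ± 0.18) called among 17 tested. Junb, a subunit of AP-1, fell in S51A from 265, 265, 238 and 219.6 CPM to 109.6, 94.8, 85.1 and 90.0 and went from 215, 292 and 185 to 207, 158, 147 and 159 in S51, not called. Without S51 vehicle replicate 2, 6 of the 17 were called higher. Of these genes, 7 were called higher in the total RNA difference, where 1.34% of all genes tested were.

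Ovol1, a regulator of epidermal differentiation, had 3.89, 3.86 and 3.48 CPM in S51 vehicle, 4.36, 4.77, 4.15 and 2.24 in S51 bortezomib, 9.33, 8.43, 9.11 and 6.88 in S51A vehicle and 1.61, 0.486, 2.60 and 0.386 in S51A bortezomib. S51 libraries of both treatments overlapped, and treated S51A libraries lay far below untreated ones. The difference was 2.72 ± 0.55 (adjusted p = 0.00841), beside a change of 0.03 in S51 and -2.69 in S51A, on few counts, and it was 2.74 without S51 vehicle replicate 2. Arid5a, which stabilizes inflammatory mRNAs, differed by 1.66 ± 0.41 (adjusted p = 0.0336) in the same manner, with 0.37 in S51 and -1.29 in S51A. Its call held in 5 of the 15 fits without 1 library, with adjusted p of at most 0.0851. DESeq2 gave neither Ovol1 nor Arid5a an adjusted p.

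Zfp750 and Zfand2a rose in both lines and further in S51. Zfp750, a factor of epidermal differentiation, rose 9.32-fold in S51 and 3.10-fold in S51A. Zfand2a, a stress-induced partner of the proteasome, rose 52.6-fold and 19.0-fold, from 1.06, 2.41 and 1.74 CPM to 94.4, 114, 83.1 and 78.3 in S51 and from 4.20, 3.58, 3.73 and 4.66 to 87.5, 85.6, 66.4 and 72.2 in S51A. The treated libraries of the lines overlapped, the untreated S51 libraries lay below the untreated S51A ones, and the difference was 1.47 ± 0.38 (adjusted p = 0.0444). Its call held in 3 and that of Zfp750 in 6 of the 15 fits without 1 library, and that of Ercc6, a DNA repair gene at 1.58 ± 0.42, in 3. DESeq2 gave Ercc6 no adjusted p.

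H2-Bl, a class I histocompatibility gene, had the largest difference of all, 4.57 ± 0.71 (adjusted p = 0.000635). Its libraries held 123, 28.5 and 19.4 CPM in S51 vehicle, 291, 210.0, 200.5 and 396 in S51 bortezomib, 330.2, 129, 500.3 and 205 in S51A vehicle and 115, 36.0, 30.6 and 44.4 in S51A bortezomib, a wide spread within each group. It belongs to a family of near-identical copies, the counting cannot be relied on to part them, and it was not tested in total RNA.

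Mitotic genes had a median difference of 0.53 in RPF and 0.47 in total RNA. In RPF 6 of 24 were called higher, beside 0.878% of all genes, and 23 were positive. Cenpf, a kinetochore protein, had 118, 52.6 and 125 CPM in S51 vehicle, 143, 204, 209.5 and 200.1 in S51 bortezomib, 112, 140.1, 119.7 and 149 in S51A vehicle and 123, 116, 104 and 117 in S51A bortezomib. Treated S51 libraries lay above untreated ones, of which replicate 2 was by far the lowest, while S51A libraries overlapped. The difference was 1.11 ± 0.26 (adjusted p = 0.0245) and 0.84 without S51 vehicle replicate 2, and the call held in 8 of the 15 fits without 1 library.

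The topoisomerase Top2a (0.82), the kinetochore motor Cenpe (0.93), the spindle protein Nusap1 (0.80) and the cytokinesis genes Anln (0.69) and Kif23 (0.66) were the others called. Without S51 vehicle replicate 2 they were at 0.61, 0.76, 0.62, 0.54 and 0.54 in that order. With the GC trend removed, 2 mitotic genes were called, and Top2a was under the fold limit at 0.52. The calls of mitotic genes depended on single libraries, with 4 called members without S51 vehicle replicate 2, 0 without S51 bortezomib replicate 3 and 11 without S51 vehicle replicate 3. The list median stayed positive in every such fit. In total RNA 6 of the 24 were called higher and none lower, beside 1.34% and 0.752% of all genes tested there. The RPF difference does not use these libraries, but by the study both kinds came from the same lysates.

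Of the components of the centrosome and microtubule-organizing center, which the study examined, 2 of 58 were called, beside 1.86% of all genes. Atf5, which also resides at centrosomes, was counted in the uORF list and not in this one. The study chose its targets otherwise, as the overlap of mRNAs raised in RPF and TE in separate comparisons, so this share is not a measure of its result. The list median was 0.22 in RPF and 0.14 in total RNA, and in RPF it was 0.13 without S51 vehicle replicate 2 and 0.09 with the GC trend removed. The called members numbered 0 without S51 bortezomib replicate 3 and 4 without S51 vehicle replicate 3. Cspp1, a spindle and centrosome protein, had 2.83, 4.34 and 5.46 CPM in S51 vehicle, 7.26, 6.68, 9.44 and 11.7 in S51 bortezomib, 9.79, 5.27, 10.8 and 7.69 in S51A vehicle and 5.14, 2.92, 3.11 and 5.79 in S51A bortezomib. Treated S51 libraries lay above untreated ones, and S51A libraries overlapped with the untreated higher on average. The difference was 1.91 ± 0.45 (adjusted p = 0.0261), 1.06 in S51 and -0.85 in S51A, both called, on few counts. The call held in 7 of 15 fits without 1 library, with adjusted p of at most 0.0765, and DESeq2 gave Cspp1 no adjusted p.

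Ckap5, a microtubule polymerase, was at 0.79 ± 0.18 (adjusted p = 0.0191), and it missed the threshold without S51 bortezomib replicate 3 (0.72, adjusted p = 0.0603) or S51A vehicle replicate 4 (0.74, adjusted p = 0.052). Its difference was 0.61 without S51 vehicle replicate 2, and 0.54 with the GC trend removed, where the call was lost. Bbs4, a protein of the ciliary base, had 4.60, 6.75 and 6.46 CPM in S51 vehicle, 13.1, 11.5, 13.6 and 17.3 in S51 bortezomib, 3.73, 5.27, 4.56 and 2.83 in S51A vehicle and 5.79, 1.95, 6.23 and 8.11 in S51A bortezomib. Its treated S51 libraries lay above the untreated ones, and S51A libraries overlapped. Bbs4 was at 0.78 ± 0.45 and the polarity gene Pard6a at 1.11 ± 0.46, neither called (adjusted p = 0.414 and 0.233). Pericentrin (Pcnt) at 0.28 ± 0.20 and γ-tubulin (Tubg1) at -0.24 ± 0.14 were not called either, and Hap1 was too low to be tested. Pard6a was called without S51 vehicle replicate 2, at 1.51 (adjusted p = 0.0369), while Bbs4 was called in none of the 15 fits that left out 1 library.

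Focal adhesion genes gave calls in opposite directions, with a median close to 0. Flna, an actin crosslinker, was called higher at 0.70 ± 0.13 (adjusted p = 0.00351), with 602, 576 and 551 CPM in S51 vehicle, 860.0, 1044, 1169.9 and 1219 in S51 bortezomib, 740.0, 800.4, 754 and 812 in S51A vehicle and 880.3, 882, 840.4 and 953 in S51A bortezomib. It rose in S51 without overlap, and in S51A the treated libraries also lay above the untreated ones but by less. Src, a tyrosine kinase, was called lower at -0.64 ± 0.16, a call that held in 3 of the 15 fits without 1 library. Vinculin (Vcl) at 0.48 ± 0.13 (adjusted p = 0.0431) missed the fold limit, and zyxin (Zyx) at -0.35 ± 0.16 missed both thresholds.

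The protein quality control genes responded in both lines with almost no call of a difference. Of 26 cytosolic heat shock chaperones, 19 rose in S51 and 22 in S51A, against 7.38% and 4.19% of all genes, with median changes of 1.30 and 1.28, and the median difference was -0.09 with 0 called. Of 32 proteasome subunits, 23 rose in S51 and 18 in S51A, with medians of 0.68 and 0.60, and a median difference of 0.05 with 0 called. The ER chaperones and degradation factors had 13 that rose in S51 and 10 in S51A of 25, and 0 called in the difference. By edgeR's test, 4 of the chaperones, 4 of the proteasome subunits and 5 of the ER genes had an unadjusted p under 0.05 for the difference, and DESeq2 called 0 in each list. Over the fits that left out 1 library, between 0 and 1 heat shock chaperones, 0 proteasome subunits and 0 to 2 ER genes were called.

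Among 15 ubiquitin genes Zfand2a alone was called. Of 18 targets of NRF2, the regulator of the oxidative stress response, 14 rose in S51 and 8 in S51A, beside 7.38% and 4.19% of all genes. Only Hmox1 (heme oxygenase) was called in the difference. Hmox1 had 31.5, 42.0 and 31.1 CPM in S51 vehicle and 173, 166, 147 and 176 in S51 bortezomib, 38.7, 35.6, 31.5 and 36.8 in S51A vehicle and 92.3, 109.9, 108 and 99.2 in S51A bortezomib. It rose 4.81-fold in S51 and 2.86-fold in S51A, with a difference of 0.75 ± 0.17 (adjusted p = 0.0177) that lost its call without S51 vehicle replicate 1 (0.69, adjusted p = 0.0522).

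Of 73 genes of the respiratory chain and ATP synthase 1 was called, Atp5g2 (-0.84 ± 0.14), whose transcript begins with the pyrimidine run that TOP mRNAs carry, and the median was -0.08.

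The remaining lists held few calls or none. Among 10 feedback genes of the MAP kinase pathway, Dusp7 was called lower (-0.71 ± 0.15, and -0.54 without S51 vehicle replicate 2, under the fold limit), with a list median of -0.49 and 8 of the 10 falling in S51 beside 4 in S51A (11.2% and 6.67% of all genes). The calls changed direction without that library, with 2 members higher and 0 lower, and likewise with the GC trend removed. The list median stayed negative, at -0.43 and -0.37. Dusp16, the highest member, was at 1.22 and not called with all libraries, and at 1.18 and called without S51 vehicle replicate 2. Of 25 genes of the TGF-β, Notch and WNT pathways, Wnt4 was called lower (-0.66 ± 0.16, call held in 8 of 15 fits without 1 library). No member was called among 10 EGF receptor and ligand genes, 16 splicing factors and CLK kinases, 37 keratins and epidermal genes or 10 squamous keratinocyte markers, whose medians ran from 0.08 to 0.13. In that order 4, 2, 9 and 3 of their members had an unadjusted p under 0.05 by edgeR's test, and DESeq2 called 2 of the keratin and epidermal genes and 0 of the others.

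Total RNA from the same 4 groups was set beside these RPF differences. Of 11708 genes tested there, 245 (2.09%) had a called response difference, 157 higher and 88 lower. With plain library sizes in place of TMM there were 258, of which 51.2% were higher against 64.1%. Of the 83 genes higher in RPF, 82 were tested in total RNA, where 78 had the same sign and 29 were called higher, beside 1.34% of all genes. Of the 93 genes lower in RPF, 78 had the same sign and 3 were called lower, beside 0.752% of all. The median total RNA difference was 0.47 for the first and -0.15 for the second. Which share of a difference in bulk RPF comes from fewer cells of a state and which from less RNA per cell cannot be told apart.

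TE, the RPF difference less the total RNA difference, was tested in 1 model of all 31 libraries, in which 122 of 9457 genes (1.29%) were called, 20 higher and 102 lower. With plain library sizes there were 97, of which 37.1% were higher against 16.4%. The model shares 1 spread between both kinds of library although RPF libraries vary more, and with weights per kind of library 73 genes were called, and without S51 vehicle replicate 2 of RPF 142. TE uses the RPF libraries again and is no independent support. Of the 83 RPF-higher genes 8 were called higher in TE, and of the 93 RPF-lower genes 58 were called lower, beside 0.211% and 1.08% of all genes in these directions.

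The TE differences of the 4 uORF mRNAs called in RPF were of like size, and 2 of them were called. Whether these genes differ from each other was not tested. For Atf4 the total RNA difference was -0.10 and the TE difference 1.51 (adjusted p = 3.32e-07 by the same test), and for Atf5 they were -0.40 and 1.86 (adjusted p = 0.000392). For Ddit3 the total RNA difference was 1.07, which was called, and the TE difference of 1.38 was not (adjusted p = 0.278), nor was that of Ppp1r15a at 1.59 (adjusted p = 0.149). Cspp1 was called in TE at 1.58 (adjusted p = 0.0386).

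In Gadd45a, Chac1 and Nfkbia the total RNA differences (1.72, 1.77 and 1.07) were close to the RPF differences, and no TE difference was called. In Eef2 total RNA went the other way from RPF, at 0.25, with 3539, 3523, 3375 and 3326 CPM of total RNA in S51 vehicle, 6389, 6911, 6289.9 and 6641 in S51 bortezomib, 2909.8, 3001, 2925 and 2930.2 in S51A vehicle and 4337, 5055, 4627 and 4866 in S51A bortezomib. Its mRNA rose with bortezomib in both lines while its RPF libraries were lower, and the TE difference was -1.38 (adjusted p = 3.04e-10).

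Tubb5 had the same pair of directions, with 0.23 in total RNA and -1.01 in TE. For ribosomal proteins the median was -0.56 in RPF, -0.15 in total RNA and -0.44 in TE, with 18 of 77 called lower in TE, beside 1.08% of all genes. For the TOP translation factors it was -0.26, 0.07 and -0.42. For mitotic genes the TE median was 0.04 with no call.

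**Figure D4:**
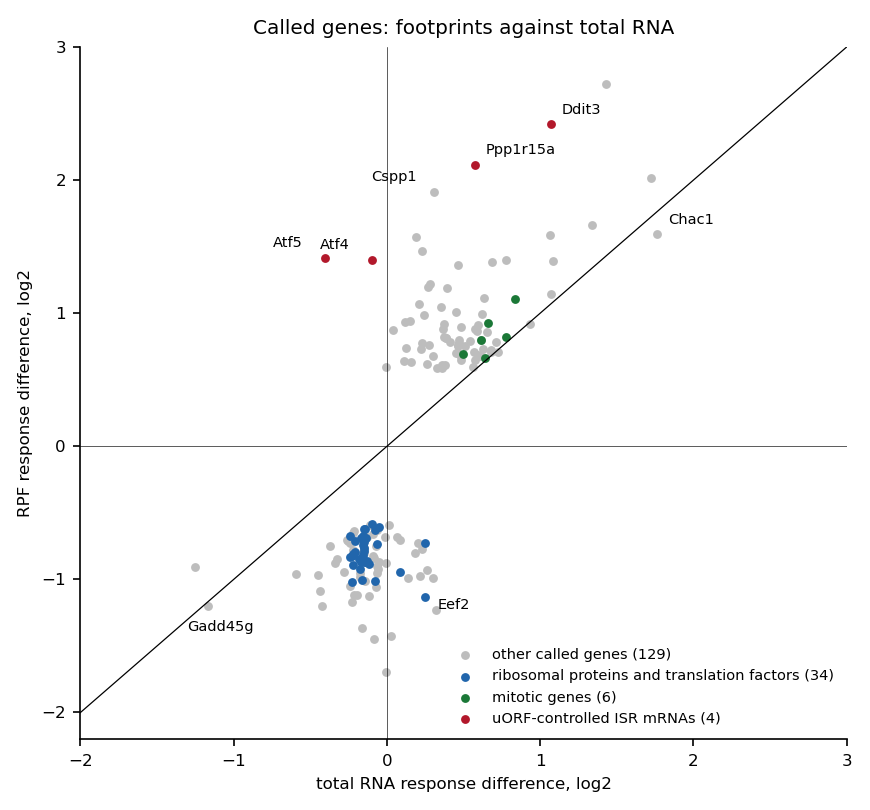
RPF response difference (y axis) against total RNA response difference (x axis), both log2, of the 173 called genes tested in both kinds of library and above 3 counts in at least 1 library of each group, with the line of equality. The 34 ribosomal protein and translation factor genes lie low on the y axis and near 0 on the x axis, the 6 mitotic genes near the line, and of the 4 uORF mRNAs Atf4 and Atf5 lie left of 0 and above 1.

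The called genes shared features that the call did not use. Genes called lower had short coding sequences, with a median of 879 nucleotides against 1395 over all genes tested and 1843.5 in genes called higher. Over 10 bins of coding length the median RPF difference ran from -0.09 in the shortest (78 to 531 nucleotides) to 0.13 in the longest (3576 to 26436), and from -0.12 to 0.14 without S51 vehicle replicate 2. The total RNA difference had the same order, from -0.16 to 0.16.

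Base composition behaved otherwise. The median coding GC content was 50.85% in higher genes, 56.19% in lower ones and 52.72% in all. Over 10 bins of coding GC content the median RPF difference ran from 0.29 in the lowest to -0.21 in the highest, but from 0.06 to 0.02 without S51 vehicle replicate 2 and from 0.07 to -0.04 in total RNA, and the medians of called genes without that library were 54.12% and 53.42%. With each library's trend on GC content removed (an alternative chosen after seeing the data), 165 genes were called higher and 149 lower, and 63 of the 83 and 75 of the 93 were called with all libraries, without replicate 2 and with the trend removed. They include Atf4, Atf5, Ddit3, Ppp1r15a, Gadd45a, Chac1, Eef2 and Eef1a1, while Lars, Slc38a2, Anln, Kif23, Dusp7, Wnt4, Src, Eif3k and the ribosomal protein genes Rpl8, Rps10 and Rps29 were among those called in neither alternative.

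Upstream AUGs did not set the called genes apart. An AUG in the leader of the transcript with the longest coding sequence was found in 43.9% of higher genes (36 of 82), 54.8% of lower genes (51 of 93) and 46.5% of all. The shares were 65.9%, 63.4% and 71.7% when any annotated transcript was counted. Both intervals for the chosen transcript (32.96 to 55.3 and 44.17 to 65.19) held the share of all genes.

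**Figure D5:**
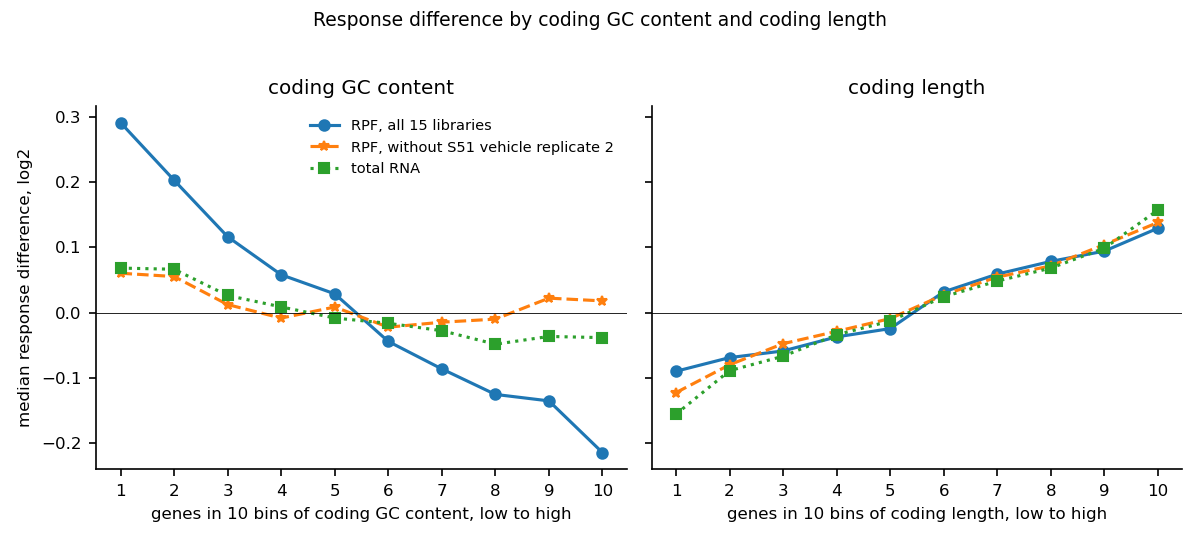
Median response difference (log2) in 10 bins of coding GC content and 10 bins of coding length, for RPF with all 15 libraries, RPF without S51 vehicle replicate 2, and total RNA. The slope on GC content seen with all RPF libraries is nearly flat without that library, and the slope on coding length is alike in all 3.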

How the data were processed

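Ribosome footprints and ribosomal-RNA-depleted total RNA were sequenced from S51 and S51A SCC cells given vehicle or bortezomib. The authors trimmed adapters, aligned reads to mm10 with Bowtie2 and deposited raw counts per gene, 1 table per kind of library. The counter is plastid in the methods and featureCounts in the labels, and DESeq2 is also named there, with no versions given in the sources used here. By the file headers, footprint reads mapped uniquely, were free of ribosomal RNA and repeats, and fell into stated length classes. By the methods, reads near start and stop codons were left out of the study's expression analysis. The headers do not say whether this holds for the deposited counts. A GEO note says that the titles of the S51 bortezomib and S51A vehicle samples had been exchanged and were put right, and all 31 columns matched their labelled groups.

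The 15 RPF libraries were fitted in 1 model by edgeR's quasi-likelihood test (edgeR 4.0.16, limma 3.58.1, R 4.3.3) with TMM scaling, after a filter on expression (filterByExpr, minimum count 10 and minimum total 15), and p-values were adjusted by Benjamini-Hochberg over all 9457 genes. Total RNA (11708 genes) and TE (31 libraries, 9457 genes) were fitted likewise. The scripts were tested on simulated data with 200 genes changed. At 2-fold, the RPF difference recovered 60% of them with 8 false among 128 calls, and TE 69% with 21 false among 159. At 4-fold, the RPF difference recovered 92.5% with 14 false among 199 calls, and TE 93.5% with 34 false among 221. RPF depth sets the precision, and 3 counts in every library of a group was taken as the floor under which no fold is given. Alternatives were plain library sizes, DESeq2 size factors, DESeq2 1.42.0, other filters, a replicate block, each library left out, removal of each library's GC trend and, for TE, limma-voom weights, the last 2 added after seeing the data.

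Genes named in the text are Eif2s1, the 12 largest called differences in each direction with a mean of at least 20 counts in some group, called genes of the lists, the ends of a list's range and 12 genes the study names. Others named were chosen after their values were seen. The members and lists were chosen with earlier results of these data known. The authors' own comparisons were not used. A few genes of the lists are not reported here.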

Additional observations from a re-analysis of the deposited data

Results flagged for a closer look

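The tested difference between the lines was itself past its threshold for 176 genes, 83 higher and 93 lower, and among the genes of greatest size it was 4.57 for H2-Bl, 2.72 for Ovol1, 2.42 for Ddit3, 2.12 for Ppp1r15a, 2.01 for Gadd45a, 1.91 for Cspp1, 1.66 for Arid5a, 1.59 for both Chac1 and Zfp750, 1.58 for Ercc6, 1.47 for Zfand2a and 1.42 for Atf5 (log2). In the other direction it was -1.70 for Eid2, -1.45 for Eif4ebp2, -1.42 for Esrra, -1.37 for Mast2, -1.23 for Flt3l, -1.20 for both Gadd45g and Mknk2, -1.17 for Nadk, -1.13 for both Eef2 and Tcf3 and -1.12 for Nudt4.

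Of the 63 groups of 4 libraries examined for the genes shown by library, 5 held 1 library far from the others by Dixon's criterion, where chance gives about 1 in 20. S51A bortezomib replicate 1 held the lowest Atf4 level (108 CPM) and the highest levels of Eef1a1 (7305 CPM) and H2-Bl (115 CPM) of its group. Rpsa stood at 1676 CPM in S51A vehicle replicate 4, and Cenpf at 143 CPM in S51 bortezomib replicate 1. The called differences of Atf4, Eef1a1, H2-Bl and Rpsa held with each library left out in turn, and that of Cenpf in 8 of 15 such fits, with adjusted p of at most 0.0676.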

How the results depend on the processing

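The count of called RPF response differences (176, with 83 higher and 93 lower) ran from 100 (43 higher, 57 lower; without S51 bortezomib replicate 3) to 379 (169 higher, 210 lower; without S51 vehicle replicate 3) over the fits that left out 1 library. With no filter on low counts 125 genes were higher, and with each library's GC trend removed 314 were called, 165 higher and 149 lower. DESeq2 called 255 (123 higher, 132 lower) and RLE size factors gave 179 (81 higher, 98 lower), while plain library sizes turned the balance over, with 109 higher and 83 lower. The TE count (122) ran from 78 to 286 over the same fits, was 64 with the lysate as a replicate block and 73 with limma-voom weights per kind of library. No named gene that was called changed the sign of its difference, but the medians of 9 of 27 gene lists, at most 0.34 in size, changed sign under some setting, among them the EGF receptor genes (-0.02) and proteasome subunits (-0.02) without S51 vehicle replicate 2 and the NF-κB list (-0.02) where 10 counts were required of each RPF library. The cause of these shifts was not tested.

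Replicate numbers are shared between groups, and a replicate block gave 193 RPF calls (108 higher, 85 lower), 157 of them among the 176. Over 21 pairs of libraries with the same number, deviations from the group means correlated at -0.1585 to 0.2615, with 3 above 0.1. The median was 0.0325, against -0.02234 over 63 pairs with different numbers. These correlations are too weak to settle whether the numbers pair the libraries. The depth of the S51 bortezomib libraries limits what can be called among genes of few counts.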

Other observations

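Histone genes, a group looked at after its values were seen and given with no test, lay mostly above 0 in the RPF response difference. Of 62 tested, 55 were positive and 11 were called higher (0.878% of all genes), none lower, with a median of 0.41 in RPF and 0.53 in total RNA. They ran from -0.42 in H2aj to 1.26 in H2bc22, and the median change was 0.22 in S51 and -0.12 in S51A. Without S51 vehicle replicate 2, 19 were called higher and the median was 0.51. Histone genes have near-identical copies, between which reads may be shared.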
